A study of Mus musculus with 6 samples.

Results

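The interferon response genes are 34 genes whose transcription rises when a cell senses interferon. They were chosen by symbol, as known targets of the pathway. In all, 27 are induced by type I interferon or by both kinds of interferon, and the other 7 are GTPases best known as interferon-gamma targets. All 34 were found among the 34745 genes of each file, and all 34 passed the filter on low counts that left 14417 genes to test. The data are poly-A RNA sequencing libraries of primary hepatocytes from the livers of male mice, 12 weeks old by the labels, in which liver fibrosis had been induced with CCl4. Both groups carried floxed FOXA2 alleles (FOXA2flox/flox, written FOXA2f/f), and both received CCl4 at 0.25 ml/kg biweekly for 4 weeks and were killed on the third day after the last dose. FOXA2H-KO+CCl4 mice (3 libraries) had been given AAV8-TBG-Cre through the tail vein 2 weeks before the first CCl4 dose, and FOXA2f/f+CCl4 mice (3 libraries) the control virus. The TBG promoter drives Cre in hepatocytes, so the other cells of the liver kept FOXA2. No group without CCl4 was analysed here, so the values compare FOXA2H-KO with FOXA2f/f in injured livers and say nothing of the injury itself.

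The labels number the libraries 1, 2 and 4 in each group and do not say that each came from a separate mouse, so the p-values measure the spread between these libraries. Total counts ran from 20983455 to 28327765 reads a library. Foxa2, the targeted gene, checks the labels. Its level in CPM (its counts as a share of the library's total, scaled for library composition by the TMM method) was 19.0, 13.5 and 16.4 in the FOXA2f/f libraries and 1.03, 0.762 and 1.62 in the FOXA2H-KO libraries. Its log2 fold change was -3.85 ± 0.31 (SE), with a Benjamini-Hochberg adjusted p of 0.0313 in edgeR's quasi-likelihood test, and adjusted p-values up to 0.499 when 1 library was left out. The libraries were hepatocyte libraries by their markers, with 10 hepatocyte genes that included Alb and Ttr summing to between 111800 and 159400 CPM, and each also held RNA of other liver cells. FOXA2f/f replicate 2 stood apart from the rest, with the lowest summed marker level for each of the 8 other cell types checked, and FOXA2f/f replicate 4 had the highest level for 5 of them.

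Interferons are secreted proteins that warn cells of infection or damage. Type I interferons signal through IFNAR and the kinases JAK1 and TYK2 to a complex that holds STAT2 and IRF9, and their target genes carry the interferon-stimulated response element (ISRE). Interferon-gamma signals through IFNGR, JAK1 and JAK2, acts on genes with the gamma-activated site (GAS) and induces IRF1. In the liver both hepatocytes and Kupffer cells, the resident macrophages, respond to these signals.

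The response elements were looked for in the RefSeq promoter windows (build GRCm38.p6), each 250 bases before to 50 after a start site. A window was at hand for 25 of the 34 genes (29 windows in all). The ISRE core, searched on both strands as GAAA, any 2 bases and GAAA, was in the windows of 14 of these 25 genes. That is 48.3% of the 29 windows, against 3.44% of all 32851 RefSeq windows. It was found for 6 of 6 GTPase genes with a window and for 8 of 19 type I and shared genes. The GAS core, TTCNNNGAA, which reads the same on both strands, was in 24.1% of the members' windows and 8.3% of all windows. The forkhead core TGTTTAC, the kind of sequence that FOXA proteins bind, was in the windows of Gbp3 and Rsad2, which is 6.9% of the members' windows against 3.65% of all windows. These matches describe letters and not bound sites.

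Stretches just upstream of the RefSeq start site are shown for 8 members, chosen because they hold matches to the cores of the pathway's response elements. Each is written from 5′ to 3′ on the strand of the gene, ISRE and GAS cores are in capitals, overlapping cores run together, and none of the stretches overlaps an exon of GENCODE M21.
Isg15, chr4:156200819-156200938, minus strand: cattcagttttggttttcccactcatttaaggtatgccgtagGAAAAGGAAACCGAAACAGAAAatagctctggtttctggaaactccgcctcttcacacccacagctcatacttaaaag
Oas1a, chr5:120907526-120907645, minus strand: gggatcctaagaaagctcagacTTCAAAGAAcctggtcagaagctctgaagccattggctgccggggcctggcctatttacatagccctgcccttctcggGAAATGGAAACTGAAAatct
Ifit1, chr19:34640769-34640870, plus strand: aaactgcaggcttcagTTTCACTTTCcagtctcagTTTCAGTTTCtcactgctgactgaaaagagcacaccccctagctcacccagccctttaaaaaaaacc
Ifit3, chr19:34583369-34583528, plus strand: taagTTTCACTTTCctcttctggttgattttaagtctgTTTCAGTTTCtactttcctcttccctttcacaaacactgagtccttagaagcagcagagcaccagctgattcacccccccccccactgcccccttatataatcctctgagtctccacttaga
Rsad2, chr12:26456453-26456572, minus strand: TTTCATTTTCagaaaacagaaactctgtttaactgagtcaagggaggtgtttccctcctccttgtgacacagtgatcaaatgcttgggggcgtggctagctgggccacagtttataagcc
Gbp7, chr3:142530216-142530335, plus strand: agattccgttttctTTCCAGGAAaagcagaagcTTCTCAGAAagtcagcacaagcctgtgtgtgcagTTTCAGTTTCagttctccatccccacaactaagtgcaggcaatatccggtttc
Igtp, chr11:58199436-58199555, plus strand: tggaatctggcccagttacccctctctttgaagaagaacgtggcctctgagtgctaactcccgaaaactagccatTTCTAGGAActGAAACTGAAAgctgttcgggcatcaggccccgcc
Irgm2, chr11:58214857-58214976, plus strand: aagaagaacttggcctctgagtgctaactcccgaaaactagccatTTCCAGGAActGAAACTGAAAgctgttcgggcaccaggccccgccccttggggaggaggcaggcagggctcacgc
The stretches of Igtp and Irgm2, neighbours on chromosome 11, were near copies of each other. At a shift of 30 bases, 87 of 90 aligned bases were identical (96.7%), and the run holding the GAS and ISRE cores lay in both. The window of Irgm2 lies inside the gene as GENCODE M21 draws it, since 1 annotated transcript starts further upstream. That start, at position 58199618, lies inside Igtp (58199556 to 58207591).

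Loss of FOXA2 was not followed by a detectable change in any of the 34 genes. In edgeR's test none was called, that is, none passed an adjusted p under 0.05 with at least a 2-fold change, in a comparison that called 1 of the 14417 genes tested (0.00694%, Foxa2 itself). DESeq2, edgeR's exact test and limma also called 0 members, where they called 75 of 22551, 64 of 14417 and 0 of 10278 genes. At an unadjusted p under 0.05 there was 1 member, Irgm2, against 745 of all genes (5.17%). The median log2 fold change of the members was 0.08, against -0.01 for all genes tested, with 21 members above 0 and 13 below. The median was 0.06 for the 27 type I and shared genes (16 above 0) and 0.14 for the 7 GTPases (5 above 0). A complete separation of the groups, with every FOXA2H-KO library above every FOXA2f/f library, was seen for 1 member, Ifi44, against 4.54% of all genes, and the reverse for 0 members against 5.96%.

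The precision set how much this comparison could show. For 24 of the 34 members the 95% interval of the fold change lay within a 2-fold change in either direction (67.3% of all genes tested did so). For the other 10 the interval reached past 2-fold, so a change of that size could have been missed. The SE of the log2 fold change ran from 0.12 for Ifih1 to 0.61 for Oas2.

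**Figure D1:**
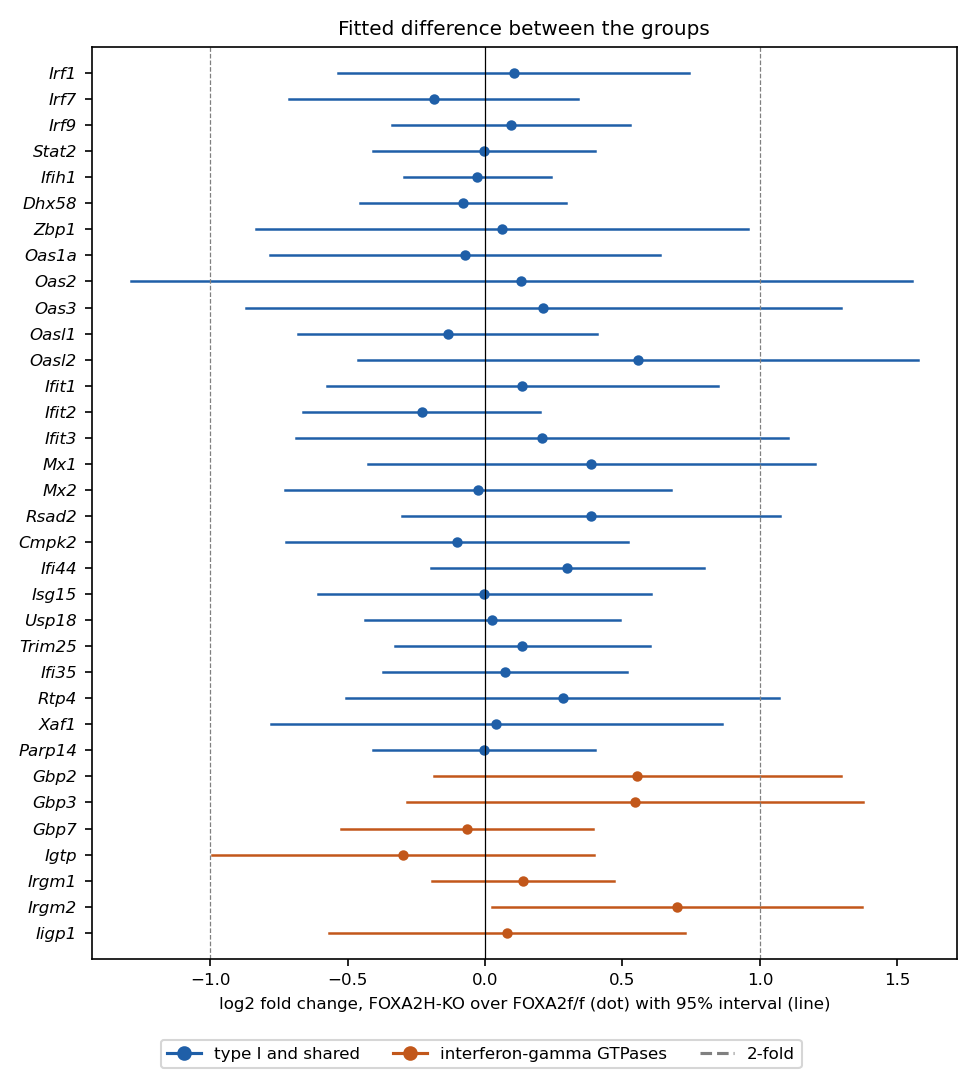
Fitted log2 fold change of each member in FOXA2H-KO over FOXA2f/f hepatocytes (dot) with its 95% interval (line), type I and shared genes in blue and GTPases in orange, and dashed lines at a 2-fold change. The interval of Irgm2, from 0.03 to 1.37, is the one that does not cross 0, and that of Oas2, from -1.29 to 1.55, is the widest.

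The levels of the members differed widely from gene to gene when compared per transcript length, in the deposited FPKM values. Iigp1, an immunity-related GTPase, stood far above the rest with a mean of 106 FPKM over the 6 libraries. It was followed by Stat2 at 13.3 and Trim25 at 12.8 FPKM. Rtp4, Ifit3, Isg15, Irf7 and Oas1a lay between 5.23 and 6.94 FPKM, and their ranges over the libraries overlapped. The lowest were Ifi44 at 0.641, Oas3 at 0.549 and Mx1 at 0.435 FPKM.

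**Figure D2:**
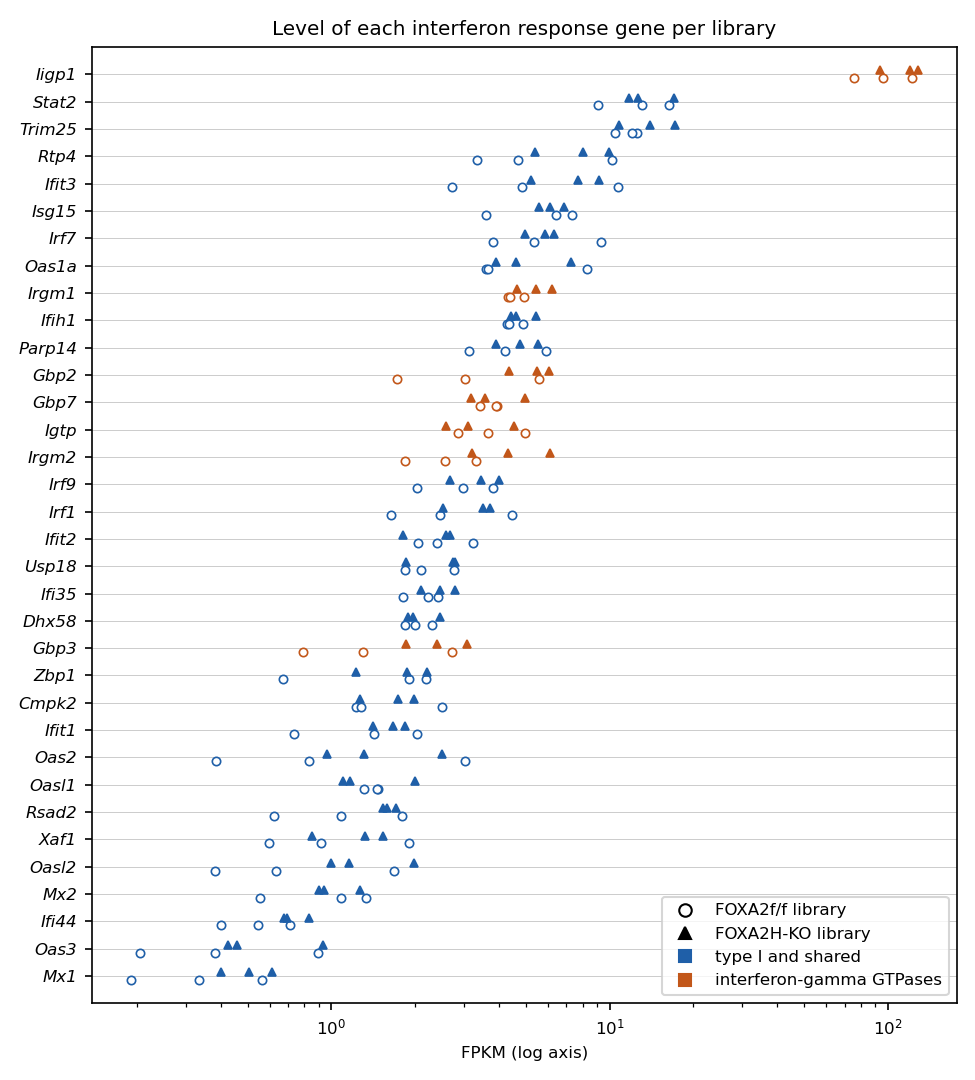
Level of each member in FPKM (log axis) in the 3 FOXA2f/f libraries (open circles) and the 3 FOXA2H-KO libraries (filled triangles), genes ordered by their mean over the 6. Iigp1 lies above all others, and the ranges of the groups overlap for 34 of 34 genes.

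Of the transcription factors of the pathway, Stat2 and Irf9 varied less from library to library than Irf1 and Irf7. Stat2, the signal transducer particular to type I and type III interferon, was at 64.6, 46.8 and 65.8 CPM in the FOXA2f/f libraries and at 68.0, 55.7 and 53.0 CPM in the FOXA2H-KO libraries. Its log2 fold change was -0.0048, with a 95% interval from -0.41 to 0.40. Irf9, the DNA-binding partner of STAT2, read 28.0, 20.1 and 29.4 CPM in FOXA2f/f and 30.6, 29.1 and 23.1 CPM in FOXA2H-KO (log2 fold change 0.09). The groups overlapped for both genes, and the lowest value of each was in FOXA2f/f replicate 2.

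Irf1, the early factor induced by interferon-gamma, read 15.6, 10.9 and 23.2 CPM in the FOXA2f/f libraries and 19.1, 19.9 and 14.6 CPM in the FOXA2H-KO libraries. Irf7, which amplifies type I interferon production, read 37.8, 28.2 and 53.7 CPM against 36.2, 37.0 and 32.0 CPM. For both genes the highest and the lowest of the 6 values were FOXA2f/f libraries, replicates 4 and 2, with all the FOXA2H-KO values between them. The log2 fold change was 0.10 ± 0.28 (SE) for Irf1 and -0.19 ± 0.23 for Irf7. Both signs turned when 1 library was left out, to -0.12 for Irf1 without FOXA2f/f replicate 2 and to 0.09 for Irf7 without FOXA2f/f replicate 4.

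The cytosolic sensors of foreign nucleic acid included the steadiest member. Ifih1 (MDA5), which binds long double-stranded RNA, read 53.0, 56.6 and 49.7 CPM in FOXA2f/f and 54.7, 51.1 and 50.5 CPM in FOXA2H-KO libraries. Its highest value was 1.14 times its lowest, and its log2 fold change was -0.03, with an interval from -0.30 to 0.24. Dhx58 (LGP2), which tunes the RNA sensors, lay between 8.32 and 10.03 CPM in all 6 libraries (log2 fold change -0.08). Zbp1, a sensor of left-handed nucleic acid that can trigger necroptosis, varied more. It read 10.1, 3.73 and 9.53 CPM against 8.06, 10.5 and 5.97 CPM, with the lowest value again in FOXA2f/f replicate 2.

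The oligoadenylate synthetase family, whose active members make the 2-5A signal that switches on RNase L, held the most variable members. Oas2 read 7.47, 3.62 and 22.3 CPM in the FOXA2f/f libraries and 18.3, 10.6 and 8.001 CPM in the FOXA2H-KO libraries. The span within the control group covered that of the knockout group, and the highest value was 6.16 times the lowest. Oasl2, a synthetase-like protein, had the largest log2 fold change of the type I and shared genes, 0.56 ± 0.44 (SE), with an adjusted p of 0.983 in edgeR's test. It read 7.43, 4.72 and 16.2 CPM against 19.0, 12.2 and 10.7 CPM, so that FOXA2f/f replicate 4 alone overlapped the FOXA2H-KO values. Its log2 fold change was 0.24 without FOXA2f/f replicate 2.

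Oas3 read 3.52, 1.97 and 6.77 CPM in FOXA2f/f and 6.95, 3.77 and 3.61 CPM in FOXA2H-KO (log2 fold change 0.21). Oas1a and Oasl1, a negative regulator of Irf7 translation, had log2 fold changes of -0.07 and -0.14. The family's members overlapped between the groups without exception. Oas1a is uncertain as a single gene, since 57.6% of its 50-base stretches occur in transcripts of Oas1g or Oas1b.

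The antiviral effectors gave the same picture. Ifit1, Ifit2 and Ifit3 bind or help bind viral RNA and block its translation. Ifit3, the most abundant of them in FPKM, read 9.28, 5.43 and 16.8 CPM in FOXA2f/f and 14.2, 13.2 and 9.20 CPM in FOXA2H-KO libraries. Its log2 fold change was 0.21 ± 0.39 (SE), and 51.2% of its 50-base stretches are shared with Ifit3b. Ifit1 lay between 2.25 and 4.86 CPM (log2 fold change 0.14). Ifit2 had the lowest log2 fold change of the type I and shared genes, -0.23, with an interval from -0.66 to 0.20.

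Rsad2 (viperin), which makes a chain-terminating nucleotide, and its neighbour Cmpk2, a nucleotide kinase, lie side by side on chromosome 12. Rsad2 read 5.76, 3.45 and 7.82 CPM in the FOXA2f/f libraries and 6.80, 8.14 and 7.45 CPM in the FOXA2H-KO libraries. Its log2 fold change was 0.39 ± 0.30 (SE), and that of Cmpk2 was -0.10 ± 0.27. The difference between the neighbours was not tested.

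Mx proteins are dynamin-like GTPases that trap viral particles, and GENCODE M21 types Mx2 as a polymorphic pseudogene. Mx1, the lowest member in FPKM, lay between 1.15 and 2.87 CPM (log2 fold change 0.39), and Mx2 between 3.23 and 6.30 CPM (-0.03). Ifi44, an interferon-induced protein of the cytoplasm, was the member whose groups did not overlap in CPM, while in FPKM they overlapped. It read 4.51, 3.45 and 4.80 CPM in FOXA2f/f and 5.55, 4.97 and 5.23 CPM in FOXA2H-KO libraries. The log2 fold change was 0.30, with an interval from -0.20 to 0.80, and the two-sided exact permutation p over the libraries was 0.1, the smallest that 3 against 3 can give.

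ISG15 is attached to other proteins like ubiquitin, USP18 removes it and also damps the type I receptor, and TRIM25 is a ligase that acts on the RNA sensor RIG-I. Isg15 read 5.33, 3.13 and 4.99 CPM in FOXA2f/f and 4.12, 5.09 and 4.25 CPM in FOXA2H-KO libraries, a log2 fold change of -0.0023 with an interval from -0.61 to 0.60. Usp18 lay between 6.43 and 9.42 CPM (log2 fold change 0.03). Trim25 read 80.2, 70.1 and 62.9 CPM against 72.2, 61.6 and 100.4 CPM, with both its highest and its lowest value in the FOXA2H-KO group.

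Among the remaining type I and shared genes, Parp14, an ADP-ribosyltransferase, read 52.7, 40.9 and 60.8 CPM in FOXA2f/f and 56.3, 53.2 and 44.7 CPM in FOXA2H-KO libraries (log2 fold change -0.0023). Rtp4, a transmembrane-protein chaperone induced by interferon, read 8.12, 6.03 and 14.5 CPM against 13.98, 12.4 and 8.56 CPM (0.28). Both were lowest in FOXA2f/f replicate 2 and highest in FOXA2f/f replicate 4. Xaf1, an antagonist of the apoptosis inhibitor XIAP, and Ifi35, a partner of NMI, had log2 fold changes of 0.04 and 0.07.

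The interferon-gamma GTPases attack the membranes around intracellular parasites and bacteria, and IRGM proteins keep the others in check. Irgm2 had the largest log2 fold change of all 34 members. It read 25.2, 14.7 and 16.0 CPM in the FOXA2f/f libraries and 26.7, 41.7 and 22.3 CPM in the FOXA2H-KO libraries. The groups overlapped, since FOXA2f/f replicate 1 lay above FOXA2H-KO replicate 4, and the FOXA2H-KO value furthest from the controls was that of replicate 2. The log2 fold change was 0.70 ± 0.29 (SE), with an interval from 0.03 to 1.37, an unadjusted p of 0.0437 in edgeR's test fitted across all genes and an adjusted p of 0.941. Without FOXA2H-KO replicate 2 it was 0.39.

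Igtp, the neighbour of Irgm2, had a log2 fold change on the other side of 0. It read 16.0, 29.2 and 16.9 CPM in the FOXA2f/f libraries and 14.1, 22.9 and 13.4 CPM in the FOXA2H-KO libraries, highest in FOXA2f/f replicate 2, where Irgm2 was lowest. The log2 fold change was -0.30 ± 0.30 (SE), and 0.03 without that library. The annotated exons of the pair overlap by 8.01% of those of Igtp and 4.39% of those of Irgm2, and 11.8% of the 50-base stretches of Igtp occur in Irgm2, so some reads could be given to either. Irgm1, a further regulator on the same chromosome, read 34.7, 36.9 and 32.4 CPM against 35.4, 44.5 and 34.4 CPM (log2 fold change 0.14, interval from -0.19 to 0.47).

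The guanylate-binding proteins differed among themselves. Gbp2 read 9.41, 5.59 and 14.2 CPM in FOXA2f/f and 13.8, 16.9 and 12.4 CPM in FOXA2H-KO libraries, with a log2 fold change of 0.55 ± 0.32 (SE). Gbp3 read 8.63, 5.54 and 14.8 CPM against 13.0, 18.3 and 11.3 CPM, with a log2 fold change of 0.55 ± 0.36. Without FOXA2f/f replicate 2 these log2 fold changes were 0.28 and 0.27, and without FOXA2f/f replicate 4 they were 0.93 and 1.00. In both genes FOXA2f/f replicate 2 was lowest, FOXA2H-KO replicate 2 was highest, and FOXA2f/f replicate 4 lay among the FOXA2H-KO values. Gbp7 read 28.2, 25.7 and 23.1 CPM against 20.8, 31.9 and 20.9 CPM (log2 fold change -0.07). The most abundant member, Iigp1, which helps to disrupt parasite vacuoles, read 419, 346 and 214 CPM against 261, 370 and 403 CPM, a log2 fold change of 0.08 with an interval from -0.57 to 0.73.

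The members also varied from library to library. The ratio of the highest to the lowest library had a median of 1.93 over the members and 1.67 over all genes tested, and a median of 3.52 in the oligoadenylate synthetase family. Most of the type I and shared genes had the same lowest library. FOXA2f/f replicate 2 was the lowest of the 6 libraries for 19 of the 27 genes (70.4%), where it was the lowest for 29.2% of all genes. The highest library was less uniform, with FOXA2f/f replicate 4 for 11 of 27 (40.7%, against 19.5% of all genes), FOXA2H-KO replicate 1 for 7 and FOXA2H-KO replicate 2 for 5. The median of the 27 genes, as log2 CPM relative to each gene's mean over the 6 libraries, was 0.30 in FOXA2f/f replicate 4 and -0.44 in FOXA2f/f replicate 2. It was 0.17, 0.14 and -0.19 in FOXA2H-KO replicates 1, 2 and 4, which all lay between them. FOXA2f/f replicate 1 also lay between them.

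**Figure D3:**
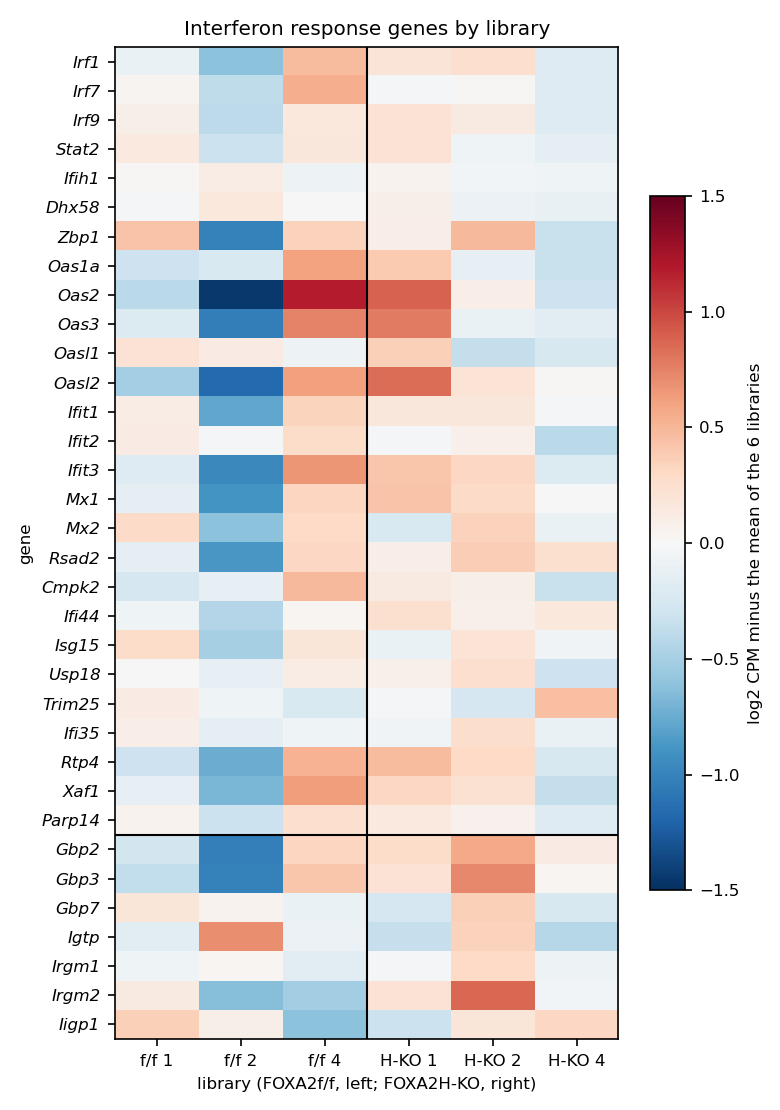
Log2 CPM of each member (rows) in each library (columns) minus the gene's mean over the 6 libraries, blue for lower and red for higher, with lines between the groups and between the 27 type I and shared genes (top) and the 7 GTPases. FOXA2f/f replicate 2 is the bluest column of the upper block, and FOXA2H-KO replicate 2 is above the mean in 7 of the 7 GTPases.

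The GTPases did not follow that order. FOXA2H-KO replicate 2 was the highest library for 5 of the 7 (71.4%), while it was the highest for 7.32% of all genes. The median of the 7 genes was 0.36 in that library and between -0.10 and 0.03 in the other 5, FOXA2f/f replicate 2 included. For Gbp2, Gbp3 and Irgm2, 3 of the 7 (42.9%, against 29.2% of all genes), FOXA2f/f replicate 2 was still the lowest library.

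The summed level of macrophage marker genes had the same order of libraries as the median of the type I and shared genes. The summed level of 10 macrophage markers was 1161, 532 and 2507 CPM in the FOXA2f/f libraries and 1908, 1742 and 1159 CPM in the FOXA2H-KO libraries. From highest to lowest this was the order of the median of the 27 genes, although FOXA2f/f replicate 1 and FOXA2H-KO replicate 4 were nearly level. Single markers departed from that order, with Cd68, Vsig4, Lyz2 and Ccr2 highest in FOXA2H-KO replicate 1. Marco read 50.9 CPM in that library, against 264.9 CPM in FOXA2f/f replicate 4. Ccr2 was the 1 marker of the 10 whose groups did not overlap, where 4.54% of all genes lay higher in every FOXA2H-KO library. It read 13.1, 6.69 and 11.7 CPM in FOXA2f/f and 20.7, 18.25 and 19.6 CPM in FOXA2H-KO libraries (adjusted p 0.689 in edgeR's test). Of these 10 markers, 8 had a higher mean in FOXA2H-KO and none was at 0 in any library. The other cell types did not all share that order, though each was lowest in FOXA2f/f replicate 2. The 10 endothelial markers summed to 512, 308 and 1048 CPM in FOXA2f/f and 588, 651 and 691 CPM in FOXA2H-KO libraries (5 of 10 with a higher mean in FOXA2H-KO), with FOXA2H-KO replicate 4 second to FOXA2f/f replicate 4. The 7 dendritic cell markers summed to 21.4, 9.76 and 46.9 CPM against 46.6, 38.7 and 32.8 CPM (6 of 7 higher), and the 10 stellate cell markers to 1308, 1084 and 2781 CPM against 2648, 1617 and 1710 CPM (9 of 10 higher). The neutrophil and bile duct markers ran otherwise. The 7 neutrophil markers summed highest in FOXA2f/f replicate 1, at 82.2, 8.06 and 58.6 CPM against 24.1, 28.6 and 18.2 CPM (2 of 7 higher). In edgeR's test 4 of the 6 that could be tested had an unadjusted p under 0.05, against 5.17% of all genes. These were S100a8, S100a9, Mpo and Elane, all with a lower mean in FOXA2H-KO and with overlapping groups. All 4 were highest in FOXA2f/f replicate 1, and their adjusted p-values in edgeR's test ran from 0.762 to 0.941. Csf3r and Cxcr2 had log2 fold changes of 0.29 and 0.27. The 6 cholangiocyte markers summed to 368, 174 and 231 CPM against 708, 252 and 588 CPM (6 of 6 higher). Spp1 made up most of that sum, at 353, 164 and 222 CPM against 687, 241 and 573 CPM. The highest value of the other cholangiocyte markers was 8.74 CPM (Sox9 in FOXA2H-KO replicate 4). Outside the neutrophil list, Ccr2, the dendritic cell marker Siglech, Krt7, Spp1 and the hepatocyte marker Asgr1 had an unadjusted p under 0.05 in edgeR's test. Asgr1 alone of these was lower in FOXA2H-KO, and no marker of any list was called. Lymphocyte markers were low. The 5 B cell markers summed to at most 6.92 CPM (5 of 5 higher) and the 11 T and NK cell markers to at most 5.34 CPM, and 7 of the latter, Cd3e and Trac included, were at 0 in at least 1 library. The part of these cells in the values of the members was not tested. In RNA from a whole preparation, fewer cells of a type and less RNA in each cell cannot be told apart.

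**Figure D4:**
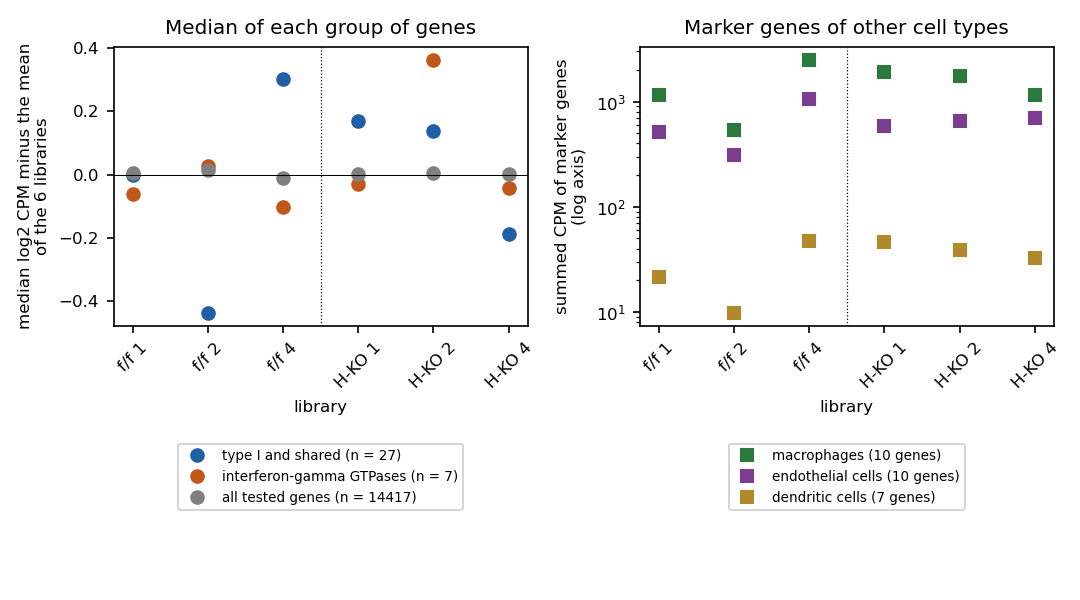
Left, median of log2 CPM relative to the mean of the 6 libraries for the type I and shared genes, the GTPases and all 14417 tested genes; right, summed CPM (log axis) of marker genes of macrophages, endothelial cells and dendritic cells in the same libraries. The type I median and the macrophage sum are both lowest in FOXA2f/f replicate 2 and highest in FOXA2f/f replicate 4, and the GTPase median is highest in FOXA2H-KO replicate 2.

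The counts of members at an unadjusted p under 0.05 changed with these FOXA2f/f libraries. Without FOXA2f/f replicate 4, 7 members had an unadjusted p under 0.05 in edgeR's test (Oas2, Oasl2, Ifit3, Rsad2, Rtp4, Gbp2 and Gbp3), which is 20.6% of the members, while 16.6% of all genes tested did so, and the lowest adjusted p of a member was 0.201 (Oasl2, log2 fold change 1.19, with adjusted p-values up to 1.0 under the other alternatives). Without FOXA2f/f replicate 2, none had an unadjusted p under 0.05, and the median log2 fold change of the type I and shared genes was -0.12. None of the 34 was called with any 1 library left out, where 0 to 6 of all genes tested were called.

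The rest of the pathway was read from 89 further genes. Of these, 78 could be tested, and their median log2 fold change was 0.08. None was called by edgeR or under any alternative, where between 0 and 75 of all genes were called. In edgeR's test 3 had an unadjusted p under 0.05, against 5.17% of all genes tested. The groups did not overlap in CPM for 6 that were higher in FOXA2H-KO, against 4.54% of all genes. They did not overlap for 1 that was lower, against 5.96%. The interferons themselves were not detectable or close to it at this depth. Ifnb1, Ifna1, Ifna2, Ifna4, Ifna5, Ifnl2 and Ifnl3 had 0 counts in every library, which allows up to 0.0952 to 0.164 CPM each on the TMM scale by counting error alone. Ifng had 0, 3 and 1 counts in the FOXA2f/f libraries and 1, 0 and 0 counts in the FOXA2H-KO libraries.

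Of the 6 receptor genes, 4 had a log2 fold change above 0. The smallest p in this list belonged to Ifnlr1, the type III interferon receptor of hepatocytes and other epithelia (log2 fold change -0.68, adjusted p 0.983), followed by Il10rb, the chain it pairs with (0.44). The 5 kinases and signal transducers had a median of -0.04. Stat3, which carries interleukin-6 signals in hepatocytes, read 170.1, 114 and 152 CPM in FOXA2f/f and 109, 120 and 115 CPM in FOXA2H-KO libraries (-0.34, interval from -0.74 to 0.05). Jak2, a kinase of the interferon-gamma receptor, lay higher in CPM in all FOXA2H-KO libraries, with a log2 fold change of 0.19 and an interval from -0.09 to 0.48. Adjusted p-values in edgeR's test were 0.944 and 0.983.

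The 6 negative regulators had a median log2 fold change of 0.0017. Socs3, an inhibitor of JAK kinases, read 30.2, 2.96 and 19.5 CPM in FOXA2f/f and 8.28, 9.34 and 12.3 CPM in FOXA2H-KO libraries (-0.82 ± 0.65, SE, and -0.19 without FOXA2f/f replicate 1), and Ptpn6, a phosphatase of blood cells, had 0.30. Again the FOXA2f/f libraries held both ends of the range of Socs3. In the induction pathway, with 12 genes and a median of 0.15, Ikbke, a kinase that phosphorylates IRF3 and IRF7, was lower in CPM in every FOXA2H-KO library. It read 39.9, 34.2 and 35.6 CPM against 30.2, 29.5 and 27.0 CPM (log2 fold change -0.34 ± 0.12, adjusted p 0.853 in edgeR's test). Tlr3, an endosomal sensor of double-stranded RNA, had a log2 fold change of 0.20, with no overlap between the groups in CPM. In FPKM the groups overlapped for Jak2, Ikbke and Tlr3.

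The other targets of type I interferon (29 genes) had a median log2 fold change of 0.06, with Oas1g, the close copy of Oas1a, at 0.55 and Ifi47, a GTPase, at -0.33. The other targets of interferon-gamma had a median of 0.28 over the 20 of 23 that could be tested, with 15 above 0. Ubd, a ubiquitin-like modifier also called FAT10, read 3.09, 2.58 and 1.88 CPM in FOXA2f/f and 4.34, 5.97 and 5.55 CPM in FOXA2H-KO libraries. Its log2 fold change was 1.08 ± 0.27 (SE), with an adjusted p of 0.65 in edgeR's test, and adjusted p-values from 0.0669 to 0.9998 under the alternatives. Tgtp1, an immunity-related GTPase, read 2.36, 2.96 and 4.10 CPM against 4.41, 12.5 and 5.37 CPM, a log2 fold change of 1.23 ± 0.43 with an adjusted p of 0.836, and 0.63 without FOXA2H-KO replicate 2. The groups did not overlap for either gene, in CPM or in FPKM. For both Ubd and Tgtp1, as for 5 of the 7 GTPase members, the highest library was FOXA2H-KO replicate 2.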

How the data were processed

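Paired-end poly-A libraries (TruSeq, Illumina HiSeq) were made from primary hepatocytes isolated by collagenase perfusion. The authors deposited, for each library, raw read counts and FPKM per gene. The submitters' processing notes name CASAVA 1.8, TopHat2 2.1.0, HTSeq, edgeR and the build mm10. The annotation and the use of strand are not given in the sources used here. FPKM served to compare levels between genes, to check whether the groups overlapped, and in the limma alternatives.

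Counts were filtered with filterByExpr, scaled by TMM and tested in edgeR 4.0.16 (R 4.3.3) with the quasi-likelihood test on 3 against 3 libraries without a replicate block, and p-values were adjusted by Benjamini-Hochberg over all 14417 genes. Genes were called at an adjusted p under 0.05 and a fold of at least 2, the thresholds of the study. SEs were derived from the F statistic, and intervals are 95% intervals. CPM are TMM-scaled. The biological coefficient of variation was 25.3%. No pair of replicates agreed within sampling noise (chi-square per degree of freedom from 38.8 to 134). The script was tested on simulated data. Alternatives were DESeq2 1.42.0, edgeR's exact test and robust fit, other scalings and filters, limma 3.58.1 on log2(FPKM + 1) and log2(FPKM + 0.1) of genes with a mean of at least 1 FPKM, a replicate block and leaving out each library.

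The members, the pathway genes and the markers were chosen with earlier results of these data known. The text names all 34 members, Foxa2, and of each pathway list the 2 tested genes with the smallest p and every called gene. Intervals and count limits cover counting error only where they come from counts of 0.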

Additional observations from a re-analysis of the deposited data

How the results depend on the processing

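No member was called under any alternative, and no called value changed sign. The number of genes called in all was 75 with DESeq2 (27 higher, 48 lower) and 64 with edgeR's exact test, against 1 in the main test here (Foxa2). It was 2 without the filter on low counts, 0 with library size alone and 0 with the replicate block. With limma on log2(FPKM + 1) and log2(FPKM + 0.1) it was 0 and 0. The study itself reported a larger count at the same thresholds than any of these. Leaving out each library in turn gave 0 to 6, the 6 without FOXA2f/f replicate 2. Members with an unadjusted p under 0.05 numbered 0 with the replicate block and 0 to 7 when each library was left out (7 without FOXA2f/f replicate 4, 0 without FOXA2f/f replicate 2 or FOXA2H-KO replicate 1 or 2). The median log2 fold change of the GTPases ranged from 0.027 (without FOXA2H-KO replicate 2) to 0.32 (without FOXA2f/f replicate 1), and that of the type I and shared genes from -0.12 (without FOXA2f/f replicate 2) to 0.20 (without FOXA2f/f replicate 4). The cause was not tested. Library size alone moved the median of all genes to 0.10 on the log2 scale, and 30 of 34 members then lay above 0, with 9 changed in sign. On log2(FPKM + 1), 27 of the 31 members left lay above 0, beside a median of all genes of 0.08. Deviations of same-numbered libraries had correlations of -0.069, 0.026 and -0.226, while those of FOXA2f/f replicate 4 and FOXA2H-KO replicate 1 reached 0.253. The values gave no sign that the numbers pair the samples, but with 3 libraries a group they cannot exclude it. A call lost under the block is therefore not described as a weaker effect. The block removed the call of Foxa2 and the unadjusted p under 0.05 of Irgm2. With 3 libraries a group, the interval of 10 members reached past a 2-fold change.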
